A study of Mus musculus with 14 samples.

Results

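Hypomethylated regions (HMRs), stretches of the genome with low DNA methylation, differed strongly between single-cell clones of the mouse mammary carcinoma line 4T1 at 1716 autosomal sites. These sites were the HMRs on chromosomes 1 to 19 with a length of 1 to under 20 kb whose highest and lowest clone differed by at least 0.5 in methylation level, on a scale of 0 to 1. They were 1716 of 92584 autosomal HMRs of that length, in a table of 101564 HMRs. The levels of the 6 clones chose these regions, so their levels and differences are given as a description, with no p-value for any single region.

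The 6 clones came from 23 lines, each grown from 1 sorted 4T1 cell and assessed as a pool for entry into the vasculature. The labels give E and T as intravasating, and I, K, L and P as non-intravasating. Genomic DNA of cultured cells was bisulfite converted and sequenced genome-wide in 2 rounds per clone. The tables held 1 level per clone, so each clone was 1 replicate (n = 2 against n = 4), the spread between rounds could not be seen and the read depth behind a level is unknown. Each line is 1 clone, so a difference between clones and one between the libraries of these clones cannot be told apart.

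In mammalian DNA, methyl groups sit mostly on cytosines of CpG dinucleotides, and the maintenance enzyme DNMT1 copies them onto the new strand at each division. Most of the genome is methylated, with low methylation at CpG islands, promoters and enhancers. Cancer cells also lose methylation over long, gene-poor, late-replicating blocks known as partially methylated domains, in which incomplete copying leaves intermediate levels. Clones grown from single cells keep much of the methylation pattern of their founder and diverge as errors build up.

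Promoters of 7 genes that mark epithelium (Epcam, Cdh1, Krt8, Krt18, Krt19, Cldn4 and Cldn7) averaged 0.242 and 0.224 in clones E and T and 0.169 to 0.239 in the other 4 clones. Promoters of 5 leukocyte markers averaged 0.754 and 0.670 in clones E and T and 0.677 to 0.769 in the others. Krt19 was the highest epithelial promoter, at 0.50 over the 6 clones, and Cdh1, the E-cadherin gene, the lowest at 0.0856.

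At the variable HMRs clone E was most often the highest clone and clones L and T the lowest. The median level was 0.592 in E and 0.207 in T, against 0.50, 0.333, 0.176 and 0.375 in I, K, L and P. The intravasating clones stood near opposite ends of the order, with I, K and P between them and L just below T. The mean level was 0.383 ± 0.210 in intravasating and 0.341 ± 0.0894 in non-intravasating clones (SD, n = 2 and n = 4), a difference of 0.0427 that is smaller than either SD. At the other 90868 autosomal HMRs of the same length the medians were 0.174 in clone E, 0.0940 in clone T and 0.0943 to 0.155 in the others, so the same clones were high and low there at lower levels. Clone E lay above clone L at 83.3% of variable HMRs and at 65.9% of all autosomal HMRs of that length. Clones E and I both lay above T and L at 1126 variable HMRs (65.6%) and at 40.1% of all autosomal HMRs of that length. T and L both lay above E and I at 36 variable HMRs (2.10%). That order was not counted over all autosomal HMRs of that length, so nothing is read from its share.

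**Figure D1:**
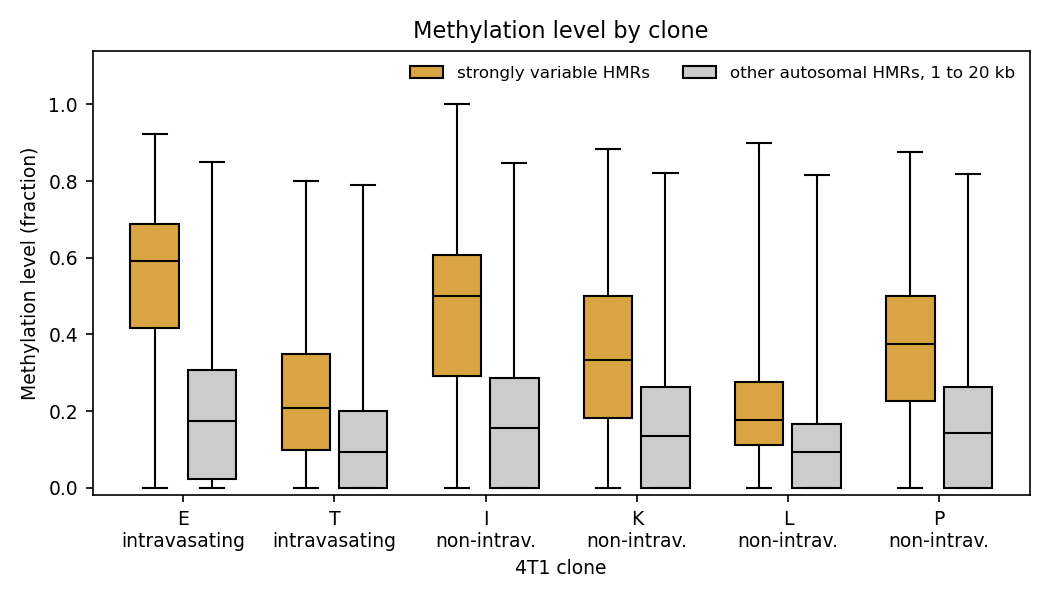
Methylation level (fraction, y axis) in each 4T1 clone (x axis) at the 1716 strongly variable HMRs (gold) and the 90868 other autosomal HMRs of the same length limits (grey). Boxes show the quartiles with the median, whiskers the lowest and highest region; among variable HMRs clone E has the highest median, 0.592, and clone L the lowest, 0.176.

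Clone E was the highest clone, ties included, at 934 variable HMRs, and clone L was the lowest at 811. Clone T was the lowest at 564 and the highest at 36. Clone I was the highest at 375. Clones K, L and P were the highest at 128, 168 and 135. The mean levels ordered the clones as E, I, P, K, T and L. Over these regions clones K and P were the closest pair, with a mean absolute difference of 0.157, and clones E and L the most distant at 0.408. The intravasating clones E and T ranked 14 of the 15 pairs, at 0.325. Without clone E the range rule found 931 HMRs and without clone L 985. Without any 1 of the other clones it found 1358 to 1563.

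To ask which clones were high together, the 6 levels of each region were split at their widest gap into high and low clones. The variable HMRs showed 56 different sets of high clones, and the 3 most frequent held 50.1% of the regions. Clone E alone was high at 385 HMRs (22.4%). Clone L alone was low at 270 (15.7%). Clones E and I together were high at 204 (11.9%). Next came clone T alone low at 113, clones E, I, P and K high at 103, clone L alone high at 89, clone I alone high at 79, and clone K alone high and clones E, I and P high at 61 each. Sets that took clones from the top of the mean order downward, such as E, then E and I, then E, I and P, covered 1023 HMRs (59.6%). A single clone stood apart, high or low, at 1106 (64.5%). Clone T stood alone high at 11 HMRs and clone E alone low at 7.

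**Figure D2:**
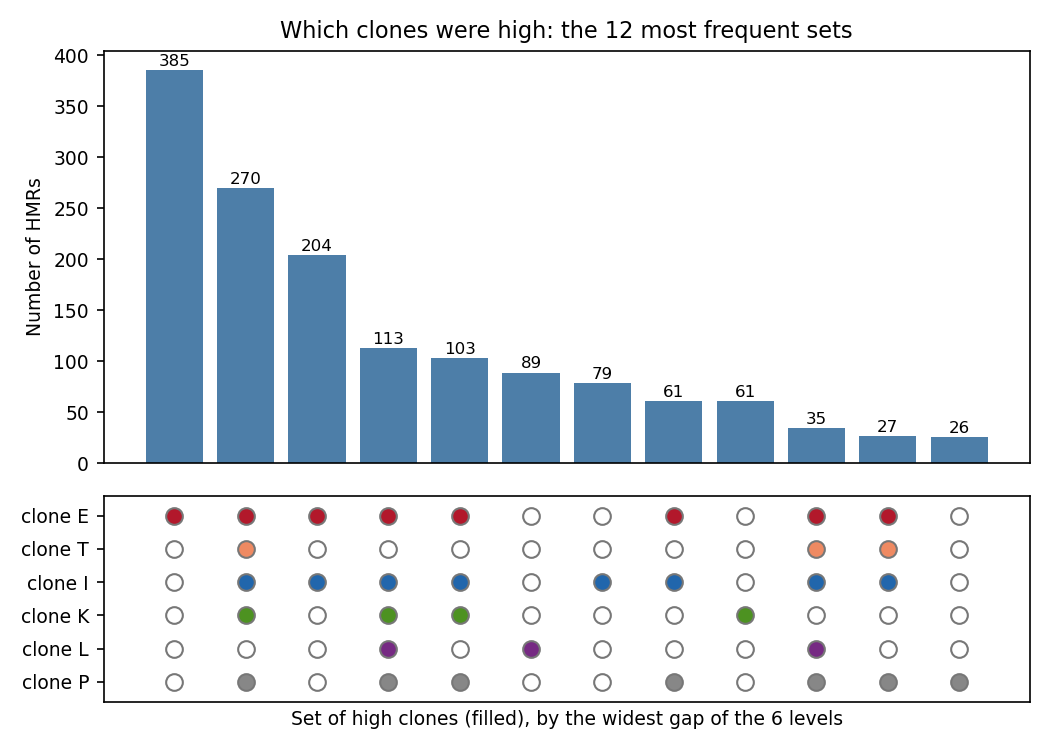
Number of strongly variable HMRs (bars, y axis) for each of the 12 most frequent sets of high clones, with the clones of the set filled in the dots below. Clone E alone, all clones but L, and clones E and I make up the 3 tallest bars, with 385, 270 and 204 HMRs.

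Within the common sets the mean levels were intermediate and not at the ends of the scale. Where clone E stood alone, the mean level was 0.634 in E and 0.191 in T, against 0.141 to 0.314 in the 4 non-intravasating clones. Where clone L was alone low, clones E and T averaged 0.647 and 0.465 and clones I, K and P 0.480 to 0.586, with clone L at 0.146. A level of exactly 0, which can be an unmethylated region or one without a usable estimate, occurred in at least 1 clone at 657 variable HMRs (38.3%). The share was 47.7% over all autosomal HMRs of that length. That includes the 17.7% at 0 in all 6 clones, which cannot reach the range, so the shares cannot be compared. The other 1059 variable HMRs were above 0 in all 6 clones. Levels of exactly 0.5 made up 2.21% to 13.2% of the levels of a clone at variable HMRs and 0.0946% to 1.63% at the others. At 313 variable HMRs the highest clone was at 0.5 and the lowest at 0. An HMR below the threshold cannot hold both levels, so these shares cannot be compared either. The range was exactly 0.5 at 375 variable HMRs, so the threshold falls on a frequent value, and it was at least 0.6 at 396 and at least 0.8 at 19.

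The HMRs just inside and just outside the threshold differed little in range. The HMR on chromosome 1 from 21850201 to 21856059 had a range of 0.50, with 0.50 in clone E, 0.0651 in clone T and 0 to 0.122 in the others. The HMR on chromosome 15 from 92548124 to 92552620 missed the threshold with a range of 0.499, at 0.606 in clone E, 0.558 in clone T and 0.20 to 0.699 in the others. Next outside were HMRs on chromosome 3 from 20524491 to 20531400 and on chromosome 6 from 41227963 to 41233579, both also at 0.499. Also at 0.50, just inside, were HMRs on chromosome 1 from 73916081 to 73918827 and from 135314069 to 135315532.

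The largest single difference was on chromosome 14 from 53263319 to 53265973, at 0 in clones E and T, 1.0 in clone I and 0 in clones K, L and P. In the next 2 largest ranges several clones lay in between. On chromosome 16 from 47644545 to 47648491, clone E was at 0.923 and clone T at 0.464, against 0.050, 0.472, 0.333 and 0 in I, K, L and P. On chromosome 7 from 75079525 to 75081781, clones E and T were at 0.875 and 0.545, and the other 4, I, K, L and P, at 0.867, 0, 0.60 and 0.318. On chromosome 16 from 29734788 to 29735845, clone T was listed at 0 beside 0.727 in clone E and 0.685 to 0.857 in the 4 non-intravasating clones. Clone T was likewise listed at 0 on chromosome 2 from 55032099 to 55037687, beside 0.588 in clone E and 0.667 to 0.842 in the others.

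Each clone had regions of its own, named by the widest gap to the nearest other clone. Clone E stood alone on chromosome 16 from 70814152 to 70818158, at 0.529 with all other clones at 0, and on chromosome 12 from 37860606 to 37868075, at 0.594 with the others at 0 to 0.0694. Clone T stood alone on chromosome 3 from 81651975 to 81657687 (0.550) and on chromosome 12 from 31371866 to 31376238 (0.523), again with all others at 0. Clone I was alone high on chromosome 3 from 100026070 to 100029261 (0.633, others at most 0.060). Clone K was alone high on chromosome 7 from 102657143 to 102663200 (0.727, others at most 0.333) and from 133163675 to 133165682 (0.571, others at most 0.188). Clone L was alone high on chromosome 3 from 57975287 to 57976385 (0.806, others at most 0.125) and on chromosome 15 from 101096645 to 101098616 (0.583, others at 0). Clone P was alone high on chromosome 18 from 79018159 to 79020879 (0.523, others at most 0.121) and on chromosome 6 from 69908842 to 69912001 (0.50, others at most 0.113). In both regions of clone T every other clone was listed at 0, whereas in those of clone K the others reached 0.333 and 0.188.

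In regions with 1 clone alone low, the other 5 clones were at intermediate or higher levels. Clone L was alone low on chromosome 12 from 16359732 to 16367201, at 0.167, with clones E and T at 0.750 and 0.80 and clones I, K and P at 0.714 to 0.769. The same held on chromosome 15 from 26310270 to 26316303, with 0.743 and 0.690 in clones E and T, 0.625 to 0.769 in clones I, K and P and 0.125 in clone L. Clone E was listed at 0 on chromosome 14 from 100146489 to 100147722, where clone T was at 0.524 and the others at 0.455 to 0.545, and on chromosome 1 from 194561776 to 194563400. Clone I was listed at 0 on chromosome 12 from 69089361 to 69094042, and clone P on chromosome 1 from 149576249 to 149580902. Clone K was at 0 on chromosome 18 from 15221823 to 15223457, with clones E and T at 0.636 and 0.444, and at 0.0625 on chromosome 5 from 30688167 to 30690215, with both at 0.595 and 0.50. The second regions of clones I and P, also at 0, lay on chromosome 16 from 92684792 to 92686139 and on chromosome 14 from 20445093 to 20446916.

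The variable HMRs lay close together. Of the 1716, 888 (51.7%) had another within 100 kb, while 8.97% of the other autosomal HMRs of that length had a variable HMR that near. Within 1000 kb the shares were 83.5% and 47.8%. HMRs as such were sparser around them, with a median distance to the nearest HMR of the same length limits of 7258 bp for variable HMRs and 2586 bp for the others. Linked at 100 kb, the variable HMRs formed 284 groups of 2 or more, 45 of them with 5 or more, and 828 HMRs stood singly. Among HMRs chosen on the other 5 clones, the share with another within 100 kb was 33.0% without clone E and 42.4% without clone L. Leaving a clone out also lowers the number of regions and so of possible neighbours.

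The largest group held 19 variable HMRs on chromosome 4 from 91848496 to 92474628. They were 19 of the 21 autosomal HMRs of the length limits in those 626 kb, and at 18 of them clones E and I were the high clones. Levels there were 0.568 to 0.818 in clone E and 0.0208 to 0.333 in clone T, against 0.478 to 0.862 in clone I, 0 to 0.550 in clone K, 0 to 0.313 in clone L and 0 to 0.438 in clone P. Over these 19 HMRs the ranges of clones E and I did not overlap with those of clones T, L or P, while that of clone K overlapped with clone I. The same levels chose these HMRs, and the share so divided over all autosomal HMRs was not counted, so nothing is read from it. Of the other 2 HMRs of the span, 1 had the same high clones, at 0.60 in clone E, 0.333 in clone T, 0.750 in clone I and 0.333 to 0.40 in clones K, L and P. The other did not, at 0.250 in clone E, 0.143 in clone T, 0 in clones I, L and P and 0.10 in clone K.

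The second group held 17 variable HMRs on chromosome 9 from 81945899 to 82680596, where clone E stood alone or with clone I at 15. Mean levels were 0.675 in E and 0.218 in T, against 0.451 in clone I and 0.183 to 0.192 in clones K, L and P. The third, on chromosome 16 from 68804245 to 69537965, held 13 variable HMRs among 36 and showed another pattern, with clone T the lowest. There clone E averaged 0.622 and clone T 0.0791, against 0.393, 0.292, 0.235 and 0.283 in I, K, L and P. The 23 HMRs of that span below the threshold averaged 0.308 in E and 0.0688 in T, against 0.0917 to 0.186 in the others.

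**Figure D3:**
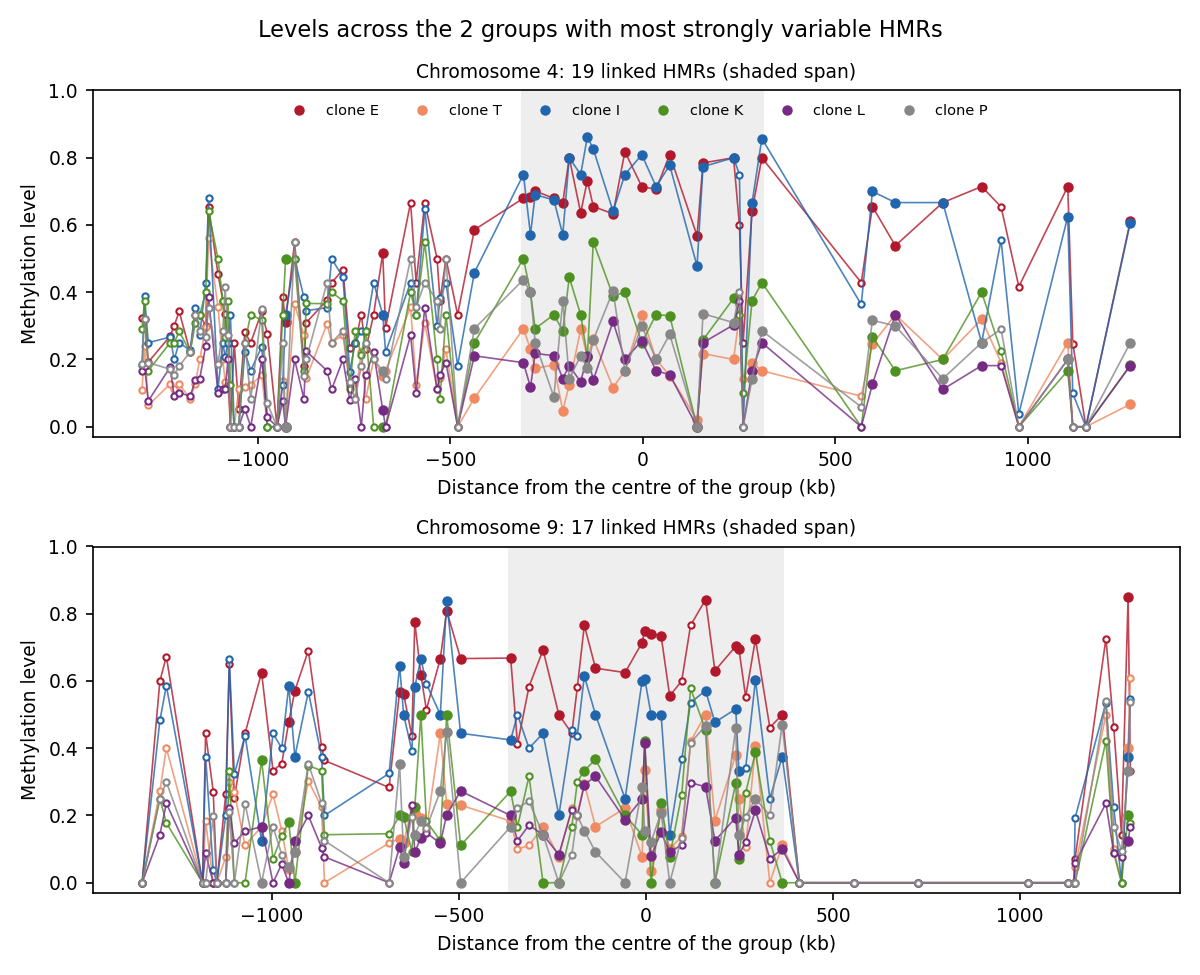
Methylation level (y axis) of every autosomal HMR of 1 to under 20 kb, by its distance in kb from the centre (x axis) of the group with 19 strongly variable HMRs on chromosome 4 (top) and 17 on chromosome 9 (bottom), up to 1 Mb beyond each group. Filled points are strongly variable HMRs, open points others, and colours the 6 clones; on chromosome 4 the filled points of clones E and I lie above those of the other 4 clones at each HMR of the group.

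Neighbouring variable HMRs often had the same high clones. The set was identical in 43.5% of the 115 neighbour pairs within 10 kb, 35.5% at 10 to 50 kb, 27.8% at 50 to 100 kb, 28.3% at 100 to 500 kb, 15.6% at 500 to 1000 kb and 10.2% of the 512 pairs farther apart. Likeness was highest at the shortest distance and lowest at the longest.

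HMRs below the threshold were those that failed the rule on the same clones, which caps the difference they can show. In the nearest such HMR, the high clones of the variable HMR were higher than its low clones in 77.7% of cases. The median difference was 0.159. It was 0.394 in the variable HMRs themselves, which have no such cap, so the medians cannot be compared. The cap is the same for all other autosomal HMRs of that length. Over all other autosomal HMRs of that length, the medians of the same sets of clones, weighted by the variable HMRs in each set, averaged 0.0199, with 55.6% above 0. HMRs at 0 in all clones were counted as not above 0 on both sides, and their share was not compared. The median was 0.130 for nearest HMRs within 10 kb. It was 0 when the nearest HMR with a range under 0.2 was taken, a choice that limits the difference further.

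The nearest other HMRs are given for each class of clone sets beside the same clone sets over all other autosomal HMRs of that length, since that background differed between the sets. Where clone E was among the high clones and T and L were not (805 variable HMRs), the nearest other HMR differed the same way in 92.0% of cases, with a median of 0.218, against a background of 62.7% and 0.0310. Where clone L was alone low (270), the figures were 86.7% and 0.199, against 66.4% and 0.0379. Where clone T was alone low (113) they were 63.7% and 0.0563, against 61.2% and 0.0222, a share close to its background. Where clone I, K, L, P or T stood alone high (266), they were 51.9% and 0.0126, against 34.3% and -0.0136. Within that class, the 79 HMRs with clone I alone high had 68.4% and 0.0598, against 49.4% and 0, and the 89 with clone L alone high had 33.7% and 0, against 15.5% and -0.0379. Share and median were thus above their background in each of these classes, and the distance from it was widest for the sets led by clone E. For those sets and for clone L alone low, the median was 0.192 and 0.198 in HMRs under 5 kb away and 0.0231 and 0.0412 beyond 1000 kb. Differences between these classes are given without a test, since HMRs that lie together in these clones share their source. A nearest HMR shared by several variable HMRs was counted for each of them here too.

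**Figure D4:**
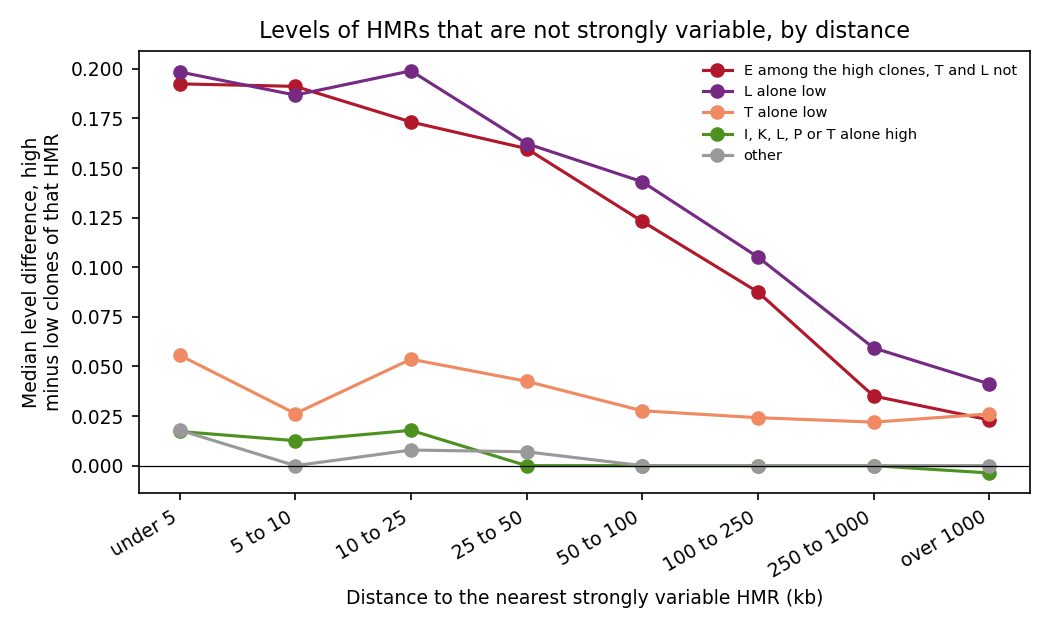
Median difference in level between the high and the low clones of the nearest strongly variable HMR (y axis), measured in HMRs below the threshold, by their distance from it (x axis, kb). Lines are classes of strongly variable HMRs; the difference starts near 0.192 and 0.198 for E-led sets and for clone L alone low and is smallest at the largest distances, and stays at or below 0.0178 where another clone stood alone high.

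Length separated the same classes. Variable HMRs had a median length of 5394 bp (quartiles 3483 and 7143 bp), against 5045 bp (3048 and 7679 bp) for the others. They were most frequent among HMRs of 5 to 7.5 kb, 2.69% of which were variable, and least frequent at 15 to 20 kb (0.449%), with a second rise to 2.08% at 1 to 2 kb. The variable HMRs at both ends of this scale were unlike each other. In the class of 1 to 2 kb, mean levels were 0.273 in E and 0.143 in T, against 0.311, 0.334, 0.510 and 0.308 in I, K, L and P, so clone L was the highest. At 10 to 15 kb they were 0.643 in E and 0.244 in T, against 0.501, 0.319, 0.161 and 0.356, and clone L was the lowest. Of the 89 HMRs with clone L alone high, 68 were shorter than 2000 bp, and their median length was 1542 bp, whereas those with E alone or E and I high had medians of 6111 and 6767 bp. Sets with E and without T and L made up 4.37% of the shortest class and 67.6% at 10 to 15 kb. The short HMRs also stood more apart, with another variable HMR within 100 kb in 17.5% of the shortest class and 81.5% at 10 to 15 kb, and 63.3% against 25.9% had a clone at exactly 0. Whether levels of 0 have a part in the pattern of the short HMRs was not tested.

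**Figure D5:**
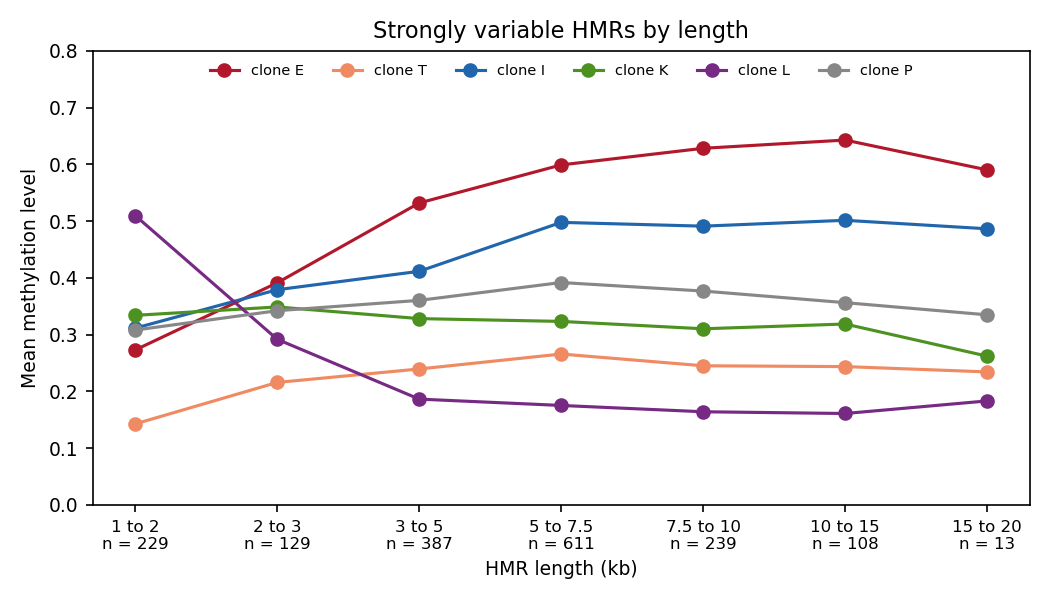
Mean methylation level (y axis) of the strongly variable HMRs in each clone, by HMR length (x axis, kb, with the number of HMRs per class). Clone L is the highest clone at 1 to 2 kb, at 0.510, and the lowest from 3 kb on, while clone E reaches 0.643 at 10 to 15 kb.

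Shares also differed between chromosomes. Variable HMRs made up 5.99% of the autosomal HMRs of that length on chromosome 16, 5.45% on chromosome 10 and 3.88% on chromosome 15, against 0.301% on chromosome 8 and 0.559% on chromosome 11. On chromosome 16, 73 of the 192 variable HMRs had clone E alone high and 28 had clone T alone low. On chromosome 10, clone L was alone low at 53 of 165. On chromosome 11 the most frequent set was clone L alone high, at 10 of 30, and on chromosome 7 clone K was alone high at 13 of 115. In windows of 5 Mb, 128 of 504 held no variable HMR and the 10 with most held 364 (21.2%). The window with most was 90 to 95 Mb of chromosome 9, where 47 of 122 HMRs were variable. In the 14 windows with at least 20% variable HMRs, the remaining 1007 HMRs averaged 0.372 in E and 0.164 in T, against 0.303, 0.20, 0.128 and 0.223 in I, K, L and P. In windows without any, the means were 0.179 in E and 0.120 in T, against 0.106 to 0.164. Between these windows clone E differed most and clone L least.

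Beyond the autosomal HMRs of that length, the same range was reached by 23.6% of the 4185 HMRs of that length on chromosome X, 8.01% of autosomal HMRs under 1000 bp and 0.206% of longer autosomal HMRs. On X the mean levels at such HMRs were 0.599 in E and 0.142 in T, against 0.383, 0.120, 0.132 and 0.245 in I, K, L and P. Autosomal HMRs under 1000 bp continued the pattern of the short class, with clone L the highest at 0.512.

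The series compared the intravasating with the non-intravasating clones, and the variable HMRs were counted by that division. Both intravasating clones lay above all 4 others at 58 of the 1716 (3.38%) and below them at 73 (4.25%), while 4.03% and 2.06% of all autosomal HMRs of that length did so. Where the groups lay 0.2 or more apart, these numbered 3 above and 8 below, while 0.0270% and 0.0151% of all autosomal HMRs of that length lay that far apart. The same 6 levels chose the variable HMRs, so nothing is read from these shares. By limma with Benjamini-Hochberg adjustment over all 101564 HMRs, 1 variable HMR was called at an adjusted p under 0.05, as were 0.147% of autosomal HMRs of that length and 0.160% of all HMRs. At an unadjusted p under 0.05 there were 61 variable HMRs, 31 of them higher in the intravasating clones, and 2.88% of the autosomal HMRs of that length. Leaving out clone E or T left 1 intravasating clone without a replicate, assumed to vary like the other 4. Calls from those fits are only counted, in the last section on processing, and nothing is read from them. At variable HMRs the median difference, intravasating minus non-intravasating, was 0.0738 with all 6 clones, -0.103 without clone E and 0.249 without clone T. Leaving out clone I, K, L or P gave 0 calls at variable HMRs and 95 to 143 over all autosomal HMRs of that length. By limma, an unadjusted p under 0.05 occurred there at 47 to 110 of the 1716 and 2399 to 3298 of the 92584.

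The called HMR, on chromosome 2 from 97130204 to 97135639, was at 0.50 in clones E and T and listed at 0 in the 4 others. The call was lost on the logit scale, among HMRs with at least 1 clone above 0, and on leaving out clone I, K, L or P. On the logit scale the variable HMR called was on chromosome 16 from 90385687 to 90387643, lower in the intravasating clones. That HMR and the one on chromosome 8 from 37868047 to 37873581 were called beside that on chromosome 2 after centring each clone on its median. The next widest gap upward was on chromosome 8 from 37868047 to 37873581, with both intravasating clones at 0.50 and the rest at 0 to 0.10. HMRs on chromosome 10 from 112548290 to 112555371, on chromosome 2 from 70230037 to 70233371 and on chromosome 10 from 106844128 to 106846538 lay above in both intravasating clones, with gaps of 0.217, 0.183 and 0.172 to the nearest other clone. These regions were named because their levels divide the groups, so their gaps are no evidence of a group difference.

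In the other direction, the HMR on chromosome 2 from 136935157 to 136936383 was at 0.0588 in E and 0 in T, against 0.50, 0.667, 0.750 and 0.571 in I, K, L and P. The HMR on chromosome 16 from 90385687 to 90387643 had both intravasating clones at 0 and the rest at 0.429 to 0.60. Further HMRs below in both were on chromosome 4 from 149251848 to 149253317 and on chromosome 16 from 10981250 to 10982468 and from 21693961 to 21695180, with gaps of 0.280, 0.250 and 0.233. All 5 of these lower HMRs were between 1218 and 1956 bp long, while the 5 higher ones were 2410 to 7081 bp. They were picked by their gap from 73 lower and 58 higher variable HMRs, whose lengths were not compared.

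The promoter table of the same clones gave a second set of regions, whose overlap with the HMRs was not checked. A range of at least 0.5 occurred at 45 of 20936 autosomal promoters, or 0.215%, against 1.85% of the autosomal HMRs of 1 to under 20 kb. At these 45 promoters the mean level was 0.503 in E and 0.306 in T, against 0.460, 0.462, 0.254 and 0.425 in I, K, L and P. Clones E and K were each the highest at 16, clone L the lowest at 20 and clone T at 15. Clones L and T were thus the low ones here as well, at promoters chosen by the same range of the same clones. Clone L was alone low at 4 promoters and alone high at 0, unlike at the short HMRs.

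Among promoters in which 1 clone stood alone, that of Vgll3, a transcriptional cofactor gene, was at 0.424 in E and 0.0816 in T, against 0.748, 0.613, 0.452 and 0.689 in I, K, L and P. The promoter of Mir200c, the gene of a microRNA that represses the epithelial repressors Zeb1 and Zeb2, was at 0.522 in E and 0.520 in T, against 0.286, 0.665, 0.0409 and 0.683. That of Zfp600, a zinc finger gene, was at 0.250 in clone E, 0.182 in clone T and 0.750 in clone I, with 0.20 to 0.278 in clones K, L and P. The olfactory receptor gene Olfr805 was at 0.806 in E and 0.382 in T, against 0.181 to 0.486, and Olfr1000 at 0.174 and 0.0213 in clones E and T, 0.535 in clone I and 0.0811 to 0.132 in clones K, L and P. These 5 promoters had their lone clone in T, L, I, E and I. By the same rule the pheromone receptor gene Vmn2r96 stood out in clone E (0.667), the keratin-associated protein gene Krtap9-5 in clone T (0.333, the lowest), Speer1-ps1 and Psg29 in clone K (both 0.667), 4930583P06Rik in clone L (0.0794, the lowest), and 9930111J21Rik1 (1.0) and Gm6696 (0.714) in clone P.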

How the data were processed

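The authors deposited each level as a fraction between 0 and 1, a single value for every clone at every HMR and gene promoter. Per the labels' protocols, adapter-ligated genomic DNA was bisulfite converted and sequenced as 76 nt paired-end reads. The submitters' processing notes name bedtools, DESeq and the build mm10 without roles. The aligner, the HMR caller, the averaging over a region and the way the 2 rounds were combined are not given here by any source used. No counts or coverage came with the levels, so no counting interval is given, and the 2 parental libraries were not analysed here. On chromosome 7, where the GRCm38 genes stop at 145.3 Mb, 379 HMRs ended farther out, so HMR coordinates are printed as the table gives them, their build is not given, and no sequence or gene was assigned to them.

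Ranges were rounded to 9 decimals before the comparison with 0.5. High and low clones were split at the widest gap, the lowest one in 15 ties. Distances are edge to edge. All HMRs were fitted with limma 3.58.1 (R 4.3.3), using eBayes with trend, which was tested on simulated data and compared clones E and T with I, K, L and P. The rest used SciPy 1.17.1, NumPy 2.4.6 and pandas 2.3.3 under Python 3.11.15. The 22110 promoter rows held 21965 distinct ones, placed on chromosomes by their RefSeq symbol. The labels do not say that clones were cultured more than once, so p-values rest on the spread between single clone values. That spread also holds differences between the libraries, and eBayes draws it toward the spread of other regions. At the called HMR the clones within each group were equal. Its standard error joins that spread of 0 with the spread of other regions, and so is smaller than the other regions alone would give.

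The regions, lists and tests were chosen with earlier results of these data known. Regions were named by rule: per clone the 2 with the widest gap alone high and alone low, the 5 largest ranges, up to 5 in each direction that divide the intravasating from the other clones, the 3 largest groups, 3 on each side of the threshold, and limma calls. Promoters were named likewise, up to 2 per clone. Chromosomes, windows and length classes singled out were chosen after their values were seen. Alternatives were other range, length and distance limits, HMRs above 0 in all clones, a logit scale bounded at 0.01 and 0.99, no mean trend, centred clones and each clone left out.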

Additional observations from a re-analysis of the deposited data

Results flagged for a closer look

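Among the 4 non-intravasating clones, a clone was marked where its gap to the nearest of the others was above the 95% critical share of the range for 4 values, which chance gives in about 1 in 20 groups. Many of the regions tested were picked because 1 clone stood alone, so marks among them are a product of that choice. Of the per-clone counts, clone I stood apart as the highest clone at 375 variable HMRs, and clone L as alone low at 270.

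Of 42 named regions, 11 were marked. Clone I stood apart on chromosome 14 from 53263319 to 53265973 (1.0), on chromosome 2 from 55032099 to 55037687 (0.842) and on chromosome 3 from 100026070 to 100029261 (0.633). Clone L did so high on chromosome 3 from 57975287 to 57976385 (0.806) and on chromosome 15 from 101096645 to 101098616 (0.583), and low on chromosome 12 from 16359732 to 16367201 (0.167) and on chromosome 6 from 41227963 to 41233579 (0.225). Clone P did so on chromosome 6 from 69908842 to 69912001 (0.50), on chromosome 12 from 37860606 to 37868075 (0.0694) and low on chromosome 1 from 21850201 to 21856059 (0), and clone K on chromosome 7 from 133163675 to 133165682 (0.571). Among 12 named promoters, clone I was marked at Zfp600 (0.750) and Olfr1000 (0.535).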

How the results depend on the processing

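The number of variable HMRs was 5172 at a range of at least 0.4, 396 at 0.6, 1059 among HMRs above 0 in all 6 clones and 868 after centring each clone on its median, against 1716. It was 1701 with unrounded ranges and 1366 at lengths of 2 to under 10 kb. With 1 clone left out it was 931 to 1563. Unrounded ranges, centring for this count and the left-out clones for the 100 kb share were added after seeing the data. The share with 1 clone alone, 64.5%, was 61.4% among HMRs above 0 in all clones and 63.0% to 65.1% otherwise. The share with another within 100 kb, 51.7%, was 66.9% at 0.4, 28.5% at 0.6, 36.5% within 50 kb and 74.9% within 500 kb, and 33.0% to 51.7% with 1 clone left out. More or fewer regions by construction change that share. Median length was 5256 bp at 0.4, 4934 bp at 0.6 and 5864 bp above 0 in all clones. The nearest other HMR gave 0.130 within 10 kb and 0 at a range under 0.2. limma called 162 HMRs in all, 273 on the logit scale, 6 after centring, 1 among HMRs with at least 1 clone above 0 and 0 where every clone was above 0 (1532 at an unadjusted p under 0.05), with 103 to 3146 when 1 clone was left out. Among variable HMRs it called 3 after centring, 0 under both filters on zeros (194 and 173 with an unadjusted p under 0.05) and 0 to 18 with 1 clone left out. The highest counts, 1142 without clone E and 3146 without clone T, come from a lone intravasating clone with no replicate, assumed to vary like the other 4. Causes were not tested. No paired analysis was possible because the columns carry 1 value per clone and no round number. Unknown depth limits the precision of each level.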
